A study of Mus musculus with 6 samples.

Results

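Hepatic stellate cells are the vitamin A-storing pericytes of the liver sinusoid, and the data were examined here for 10 genes that mark them or the matrix they lay down: Lrat, Reln, Dcn, Pdgfrb, Des, Hand2, Ecm1, Rgs5, Lum and Ctgf. The genes were taken by symbol, and all 10 were found among the 49212 genes of the deposited tables. Liver RNA had been sequenced in 3 libraries from mice that carried a DHT pellet and 3 libraries from placebo mice. All were on the C57BL/6J background and aged 15 weeks, and the labels call the DHT animals PCOS mice. DHT is dihydrotestosterone, an androgen, and its slow release from an implant is used to model polycystic ovary syndrome (PCOS). The series title asks how androgen affects the hepatic clock and fatty liver in such mice.

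In a resting liver, stellate cells esterify retinol and hold it in lipid droplets, and they touch endothelial cells and hepatocytes through long processes. After injury they respond to PDGF and TGF-beta, lose the retinyl esters and become collagen-secreting myofibroblasts, which are a main source of scar matrix in fatty liver disease. The 10 genes cover these roles: the retinoid enzyme and lineage genes Lrat, Reln and Hand2, the pericyte and cytoskeletal genes Pdgfrb, Des and Rgs5, and the secreted matrix genes Dcn, Lum, Ecm1 and Ctgf. In whole liver, fewer cells of a type and less RNA per cell cannot be told apart.

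Total counts were between 41336844 and 60209462 per library. The libraries labelled DHT held 145 to 169 CPM (gene counts scaled to one common library total) from the Y chromosome, against 1.02 to 2.16 CPM in the placebo libraries. Xist, the RNA that coats the inactive X chromosome, was at 0.116 to 0.556 CPM in DHT and at 23.3 to 235 CPM in placebo. The labels give no sex, and PCOS is a female condition, so the sex chromosome signal and the treatment cannot be told apart in any comparison below. Mitochondrial genes took 6.44%, 8.47% and 8.001% of counts in DHT libraries 1 to 3 and 6.83%, 4.83% and 3.23% in placebo libraries 1 to 3. Whether each library is its own animal is not stated, and the p-values below then cover the variation among these libraries alone, which may be technical. The 8 hepatocyte markers summed to 83504 to 96908 CPM in DHT and 91163 to 133191 CPM in placebo, as for liver tissue.

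The stellate cell markers were present in every library, with the lowest count being 63, for Ctgf in DHT library 3. The mean was lower in DHT than in placebo for 9 of the 10 genes, and only Rgs5 was higher. The fitted log2 fold change was below 0 for the same 9 genes, as it was for 51.9% of all genes. By edgeR's quasi-likelihood test, adjusted over 15126 genes, 0 of the 10 were called at an adjusted p under 0.05, where 1.65% of all genes were called. At an unadjusted p under 0.05 there were 5 of 10, against 15.9% of all genes. DESeq2 called 2 of them (Ctgf and Lum), where it called 7.02% of all genes, and limma called 1 (Ctgf), where it called 4.92%. Blocking on replicate number called Ctgf, Lum and Ecm1, all lower in DHT, where that fit called 10.7% of all genes, 5.28% as lower and 5.44% as higher. In CPM, Ctgf and Lum were the 2 genes whose groups did not overlap, both lower in DHT, as were 6.27% of all genes (27.4% did not overlap in either direction). After TMM scaling there were 4, with Des and Hand2 added, again all lower in DHT, as were 10.9% of all genes (23.6% in either direction). Over the 10 genes the median log2 fold change, DHT minus placebo, was −0.85, against −0.02 over all genes tested. Scaling by library size alone moved these medians to −0.67 and 0.17, and left the same 9 genes below 0. The median over the 10 genes was −0.44 without placebo library 1.

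**Figure D1:**
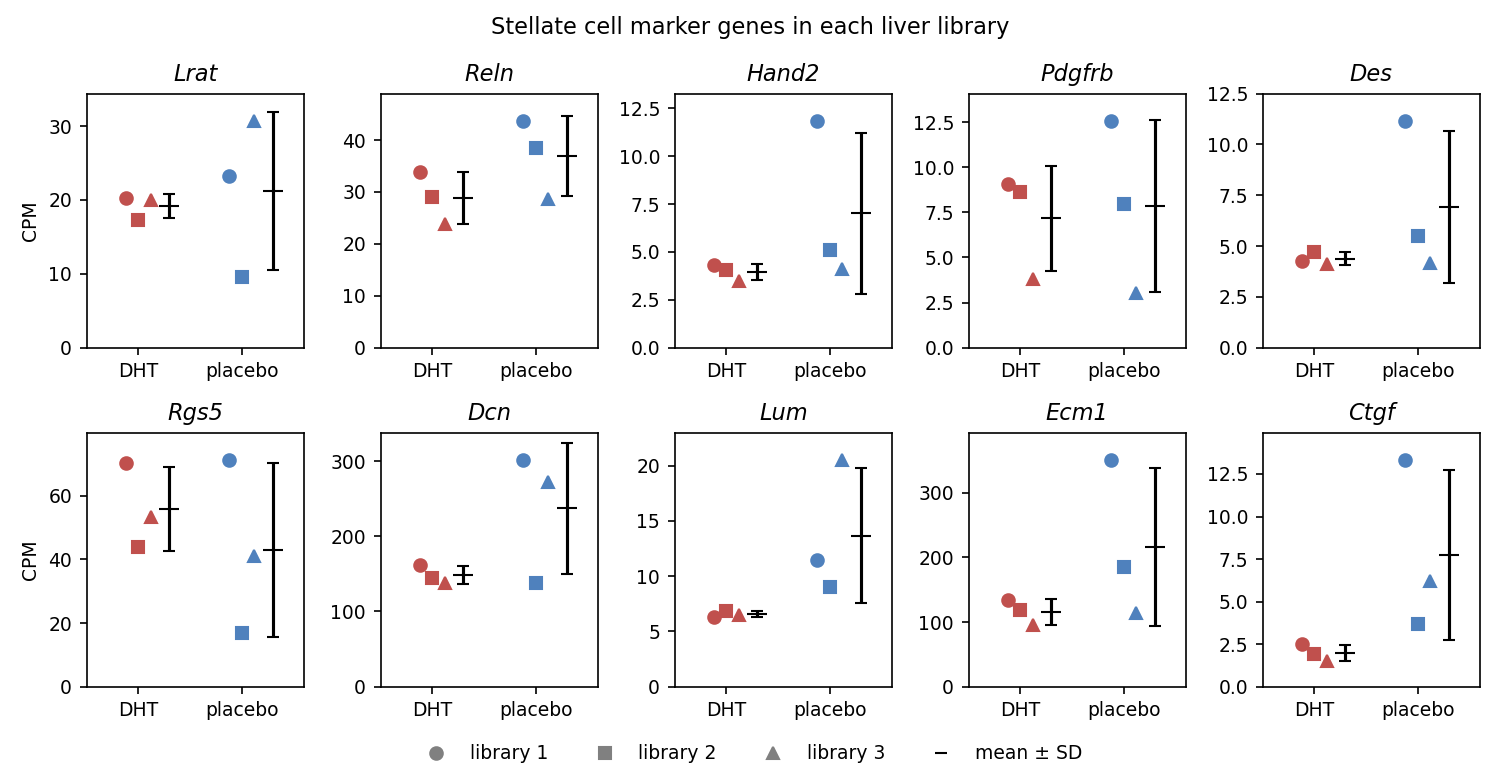
Level of each stellate cell marker in each library, in CPM of all gene counts from 0 upwards, with 3 DHT libraries left and 3 placebo libraries right and the mean ± SD beside them. In each gene the DHT libraries vary less than the placebo libraries, and placebo library 1 is the highest of all 6 libraries in 8 of the 10 genes.

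Sequence upstream of the start was at hand from RefSeq (GRCm38.p6) for Lrat, Reln, Des, Hand2, Ecm1 and Rgs5. The 250 bases before the start are shown for 3 genes whose profiles over the libraries were the most alike among the 10 (Des, Hand2 and Ecm1) and for Rgs5, the member whose mean was higher in DHT. Capitals mark E-boxes (CANNTG, read on both strands), the element bound by basic helix-loop-helix factors, the class to which HAND2 itself and the clock activators belong.
Des upstream window, chr1:75360042-75360291, plus strand: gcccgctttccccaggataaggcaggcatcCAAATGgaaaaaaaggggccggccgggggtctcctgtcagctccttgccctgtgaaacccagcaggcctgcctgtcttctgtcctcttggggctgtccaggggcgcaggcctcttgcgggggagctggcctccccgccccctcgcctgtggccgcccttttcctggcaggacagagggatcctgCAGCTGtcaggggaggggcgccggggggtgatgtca
Hand2 upstream window, chr8:57320733-57320982, plus strand: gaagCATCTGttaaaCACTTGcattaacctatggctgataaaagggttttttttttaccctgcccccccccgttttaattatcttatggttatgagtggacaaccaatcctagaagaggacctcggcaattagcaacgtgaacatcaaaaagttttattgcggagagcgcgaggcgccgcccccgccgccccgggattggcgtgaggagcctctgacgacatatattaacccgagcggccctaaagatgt
Ecm1 upstream window, chr3:95739570-95739819, minus strand: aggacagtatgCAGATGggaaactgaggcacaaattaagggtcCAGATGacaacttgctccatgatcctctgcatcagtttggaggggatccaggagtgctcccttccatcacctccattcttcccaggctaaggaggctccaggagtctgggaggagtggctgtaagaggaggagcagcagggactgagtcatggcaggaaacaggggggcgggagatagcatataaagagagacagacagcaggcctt
Rgs5 upstream window, chr1:169655251-169655500, plus strand: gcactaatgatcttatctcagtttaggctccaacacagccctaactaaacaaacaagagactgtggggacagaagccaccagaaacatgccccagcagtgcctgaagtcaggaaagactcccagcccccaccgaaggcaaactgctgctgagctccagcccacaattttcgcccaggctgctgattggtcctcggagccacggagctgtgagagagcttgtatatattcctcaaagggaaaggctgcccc

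Des, Hand2 and Ecm1 each held 2 E-boxes in this window, Lrat and Reln each held 1, and Rgs5 held 0. Of 32536 such windows in the table, 66.2% held at least 1 E-box, so its presence does not set these genes apart. The share with 2 or more was not counted. Counting the base before the start as −1, the E-boxes of Des began at −220 and −36, those of Hand2 at −246 and −235, and those of Ecm1 at −239 and −207. CACGTG, the form that the clock activators prefer, was found among the 6 windows in Reln alone, at −71, and in 6.04% of all windows. AGAACA, the core of steroid hormone response elements, was found in Lrat alone (on the other strand, at −73), and in 16.0% of all windows. Ecm1 held TATAAA at −27 (12.3% of all windows) and the AP-1 motif TGANTCA at −64 (6.73%). These are letter matches and say nothing of binding.

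Lrat (chromosome 3, 82892579 to 82903973, minus strand), which makes the stored retinyl esters, is the most specific of the markers for retinoid-storing cells. Its CPM was 20.3, 17.2 and 20.03 in DHT libraries 1 to 3 and 23.2, 9.60 and 30.7 in placebo libraries 1 to 3. The DHT libraries lay inside the placebo range, which spanned 3.20-fold from placebo 2 to placebo 3. Its log2 fold change was −0.33 ± 0.40 (SE; adjusted p = 0.716), and the sign turned without placebo library 3 (0.060).

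Reln (chromosome 5, 21884454 to 22344702, minus strand) encodes reelin, a large secreted glycoprotein that stellate cells make in quiescence and after activation. Levels were 33.9, 29.0 and 23.8 CPM in DHT and 43.7, 38.4 and 28.6 CPM in placebo. Library 1 was highest and library 3 lowest in either group, and the ranges overlapped by the single placebo library 3. On the log2 scale the difference was −0.53 ± 0.26 (adjusted p = 0.358). Exons of Reln overlap those of Gm10475 over 1.04% of their length, and Gm10475 had 10 counts in the 6 libraries together.

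Hand2 (chromosome 8, 57320983 to 57324633, plus strand) encodes a transcription factor of the stellate lineage. It had 4.34, 4.04 and 3.48 CPM in DHT and 11.9, 5.11 and 4.09 CPM in placebo. Placebo 1 stood far above the other 5 libraries, and placebo 3 lay within the DHT range. Its fitted difference was −1.0 ± 0.41 on the log2 scale (adjusted p = 0.289). Without placebo library 1 it was −0.45. Exons of Hand2 overlap over 18.8% of their length with Gm28063 on the other strand, which had 0 counts in the 6 libraries.

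Pdgfrb (chromosome 18, 61045150 to 61085061, plus strand), the receptor through which PDGF drives stellate cell growth, had 9.05, 8.64 and 3.82 CPM in DHT and 12.6, 7.96 and 3.03 CPM in placebo. Library 3 was the lowest of its group in both, and every DHT library lay inside the placebo range. The log2 fold change was −0.30 ± 0.52 (adjusted p = 0.812) and turned to 0.16 without placebo library 1 and to 0.011 without DHT library 3.

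Des (chromosome 1, 75360329 to 75368579, plus strand) encodes desmin, the muscle-type intermediate filament used to stain rodent stellate cells. It had 4.29, 4.72 and 4.14 CPM in DHT and 11.2, 5.47 and 4.15 CPM in placebo. Placebo 3 sat at the low edge of the DHT libraries and placebo 1 far above them. Desmin RNA differed by −0.84 ± 0.37 on the log2 scale (adjusted p = 0.323), and it was −0.37 without placebo library 1. Its exons overlap those of Gm15179 over 5.86% of their length, and Gm15179 had 0 counts.

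Rgs5 (chromosome 1, 169655501 to 169695813, plus strand), a brake on G-protein signalling and a pericyte gene, was the only member with a higher mean in DHT. It had 70.3, 43.9 and 53.4 CPM in DHT and 71.4, 16.8 and 41.0 CPM in placebo. The highest DHT and the highest placebo library were alike, and placebo 2 was far below the rest. Its log2 fold change was 0.21 ± 0.47 (adjusted p = 0.866), with the sign turning without placebo library 2 (−0.18) and without DHT library 1 (−0.014).

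Ctgf, now named Ccn2 (chromosome 10, 24595442 to 24598683, plus strand), showed the largest difference among the 10. It encodes a matricellular protein that TGF-beta and the YAP coactivator induce, and hepatocytes can make it as well as stellate cells. Its CPM was 2.48, 1.91 and 1.52 in DHT and 13.3, 3.67 and 6.21 in placebo, so that every DHT library lay below every placebo library. The mean was 1.97 ± 0.48 CPM in DHT and 7.74 ± 5.01 CPM in placebo (SD, n = 3 each), 3.92-fold higher in placebo.

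On the log2 scale the change of Ctgf was −2.14 ± 0.48 (adjusted p = 0.082 by edgeR). With the replicate block it fell by 2.00 ± 0.34 (adjusted p = 1.51e-05), and it also passed by DESeq2 (adjusted p = 0.000422), by limma (0.0287), with no low-count filter (0.00767) and without placebo library 3 (0.0339). The highest of 17 alternatives was 0.284, without DHT library 2. Without placebo library 1, its highest library, the log2 fold change was −1.55. Exons of Ctgf overlap those of Gm15270 on the other strand over 23.2% of their length, and Gm15270 had 28 counts in the 6 libraries.

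Lum (chromosome 10, 97565501 to 97572703, plus strand) encodes lumican, a small leucine-rich proteoglycan of collagen fibrils. It had 6.33, 6.84 and 6.48 CPM in DHT and 11.5, 8.98 and 20.5 CPM in placebo, again without overlap. Placebo 3 was the highest library, in contrast to Ctgf, where placebo 1 was. The DHT libraries differed by 1.08-fold from lowest to highest, the narrowest range of any of the 10 genes. On the log2 scale lumican RNA differed by −1.25 ± 0.34 (adjusted p = 0.138). With the replicate block Lum fell by 1.16 ± 0.30 (adjusted p = 0.00529), and it passed by DESeq2 (adjusted p = 0.0175). Without placebo library 3 it was −0.82 (adjusted p = 0.0574).

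Dcn (chromosome 10, 97479500 to 97518162, plus strand) encodes decorin, a relative of lumican that binds collagen and TGF-beta. Both genes are neighbours, with 47338 bases and 0 counted genes between them. Dcn had 161, 145 and 138 CPM in DHT and 302, 138 and 272 CPM in placebo. Placebo 1 and 3 were high and placebo 2 was at the level of the lowest DHT library. On the log2 scale decorin RNA differed by −0.86 ± 0.33 (adjusted p = 0.255, and 0.0733 with the replicate block). Counts of Dcn over counts of Lum were 25.5, 21.1 and 21.3 in DHT and 26.3, 15.3 and 13.2 in placebo, so the ratio overlapped between the groups. Kera and Epyc, which encode small leucine-rich proteoglycans of cornea and cartilage, had 0 counts in all libraries.

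Ecm1 (chromosome 3, 95734147 to 95739569, minus strand) encodes a secreted glycoprotein that in mouse liver helps to keep TGF-beta latent. It had 134, 118 and 95.0 CPM in DHT and 351, 185 and 113 CPM in placebo. Placebo libraries 1 and 2 were above all DHT libraries and placebo 3 was inside their range. For Ecm1 the log2 fold change was −1.08 ± 0.40 (adjusted p = 0.251). With the replicate block Ecm1 fell by 0.95 ± 0.29 (adjusted p = 0.0231), and it passed without placebo library 3 (adjusted p = 0.0286). It was −0.60 without placebo library 1 (adjusted p = 0.444).

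**Figure D2:**
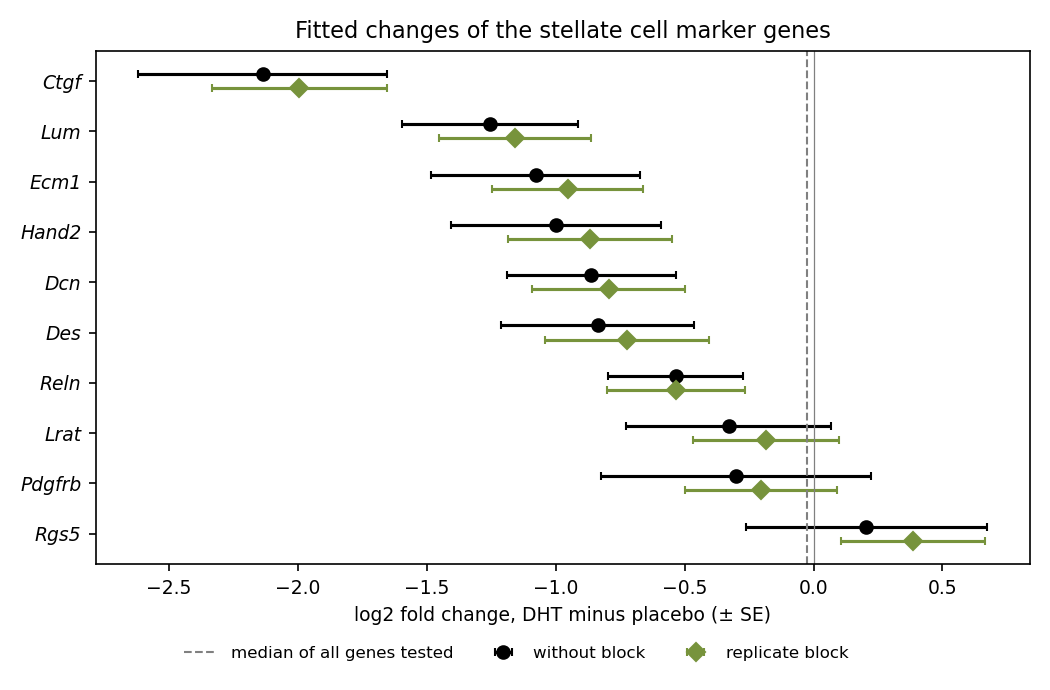
Fitted log2 fold change (DHT minus placebo, ± SE) of each marker gene without a block (circles) and with the replicate number as a block (diamonds), beside the median of all genes tested (dashed line, −0.02). Ctgf lies farthest to the left at −2.14 and Rgs5 alone lies right of 0.

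Compared per length, in CPM per kilobase of exon, Dcn had the highest mean of the 10 and Ecm1 the next in both groups. Their ranges overlapped in placebo, where library 2 had Ecm1 at 73.4 and Dcn at 66.0. Dcn had 71.0 ± 5.75 in DHT and 114 ± 42.0 in placebo, and Ecm1 had 45.9 ± 7.74 in DHT and 85.9 ± 48.4 in placebo (SD, n = 3 each). Rgs5 came next in both, with 12.3 ± 2.94 in DHT and 9.47 ± 6.01 in placebo. In DHT the order then ran Lrat, Lum, Hand2, Pdgfrb, Reln, Des and Ctgf. The neighbours Lrat and Lum, Hand2 and Pdgfrb, Pdgfrb and Reln, and Reln and Des overlapped in their ranges over libraries. In placebo it ran Lum, Lrat, Hand2, Ctgf, Des, Reln and Pdgfrb, and all neighbours after Ecm1 overlapped. Ctgf was thus last in DHT, at 0.690 ± 0.168, and between Hand2 and Des in placebo, at 2.71 ± 1.75. Together Dcn and Ecm1 made up 66.2% to 69.3% of the CPM of the 10 genes in DHT and 73.6% to 77.1% in placebo.

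The placebo libraries were more uneven than the DHT libraries in all 10 genes. The coefficient of variation over the 10, from CPM by library size, had a median of 13.9% in DHT and 55.1% in placebo. Over all genes tested, from TMM-scaled CPM and so not on the same scale, it was 17.6% in DHT and 36.4% in placebo. Of all genes tested, 82.6% varied more in placebo. Placebo 1 was the highest of the 6 libraries for 8 of the 10 genes, the exceptions being Lrat and Lum, which peaked in placebo 3. DHT 3 was lowest for Reln, Des, Hand2, Ecm1 and Ctgf, placebo 2 for Lrat, Dcn and Rgs5, placebo 3 for Pdgfrb and DHT 1 for Lum.

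The members did not form a single profile over the libraries. Likeness was measured as the root mean square difference of log2(CPM + 0.1), centred on each gene, over the 6 libraries, so that 0 means the same profile. Des and Hand2 were the closest pair of members at 0.1199, followed by Hand2 and Ecm1 at 0.138 and Des and Ecm1 at 0.201. In these 3 genes placebo 1 was highest and placebo 2 was above placebo 3. Of the other genes with a mean of at least 1 CPM, 0.0502% were closer to Des than Hand2 was. This pair was picked as the closest, so that share is no test. Counts of Ecm1 over counts of Hand2 were accordingly steady, at 30.9, 29.2 and 27.3 in DHT and 29.6, 36.2 and 27.7 in placebo. Dcn and Lum differed by 0.3603 and Lrat and Dcn by 0.381, with placebo 2 below both other placebo libraries in all 3. For Dcn and Lum, 5.19% of genes were closer to Dcn than Lum was. Rgs5 and Ctgf were the least alike, at 1.19, and 95.2% of genes were closer to Rgs5 than Ctgf was.

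The share of mitochondrial counts fell over placebo libraries 1 to 3 (6.83%, 4.83% and 3.23%), as did Des, Hand2, Ecm1, Reln and Pdgfrb. In DHT libraries 1 to 3 the share was 6.44%, 8.47% and 8.001%. There Hand2, Ecm1, Reln and Pdgfrb fell from library 1 to 3, and Des was highest in library 2. The part of the mitochondrial share in the result was not tested. Among 11960 genes, those closest to Ctgf were Cd34 (0.192), Hsd17b6 (0.294) and Stambpl1 (0.353). Closest to Lum were Nt5c3b, Gm11837 and Selenow, at 0.0976 to 0.123. Dll4, Gpr182 and Mmrn2 were closest to Ecm1, at 0.0861 to 0.1004.

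**Figure D3:**
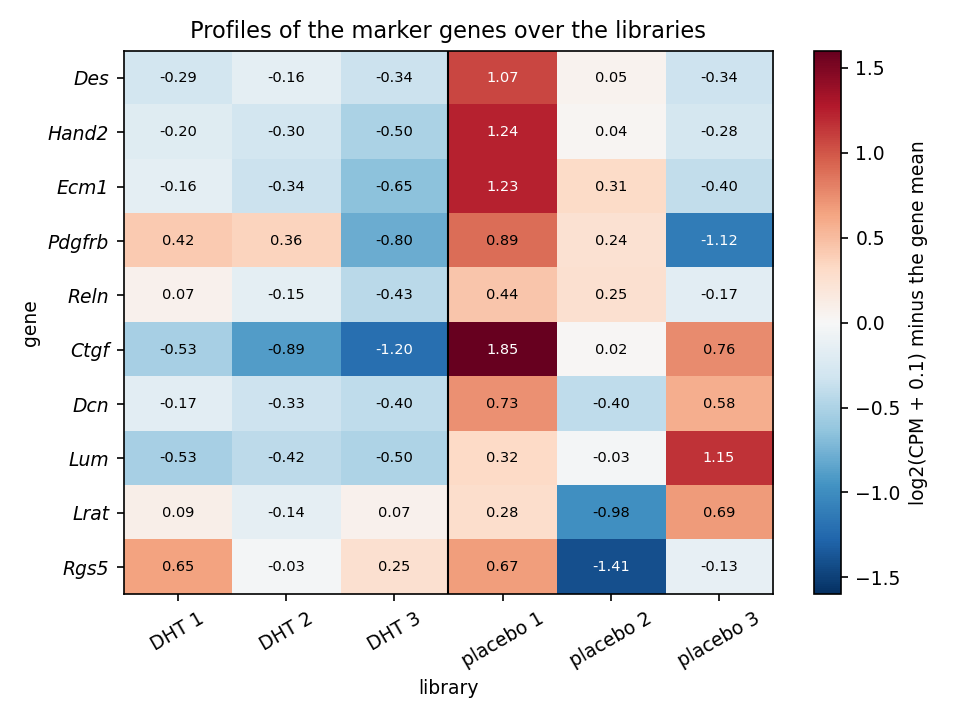
Profiles of the 10 genes over the 6 libraries, as log2(CPM + 0.1) minus the mean of the gene (colour and printed value), with DHT left of the line. Des, Hand2 and Ecm1 share the peak in placebo 1 (1.07 to 1.24), while Lrat and Rgs5 have their minimum in placebo 2 (−0.98 and −1.41).

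Other genes of quiescent stellate cells were mostly lower in DHT without passing the test. Of 22 tested, 0 were called, 19 had a log2 fold change below 0 and the median was −0.72. With the replicate block 1 rose and 3 fell. Angptl6, a secreted angiopoietin-like factor gene, was at −1.02 ± 0.27 (adjusted p = 0.128), and it fell with the block (adjusted p = 0.00975). Exons of Angptl6 overlap those of A230050P20Rik on the other strand over 16.8% of their length. A230050P20Rik had 6120 counts in the 6 libraries, and Angptl6 had 5684. Tmem56, a membrane protein gene, was at 1.16 ± 0.33 (adjusted p = 0.151) and rose with the block (adjusted p = 0.00377). The summed level of the list was 714, 607 and 533 CPM in DHT and 752, 502 and 388 CPM in placebo, with the higher mean in DHT. Tmem56 alone gave 362, 300 and 260 CPM in DHT and 124, 162 and 77.9 CPM in placebo, and leaving it out, a split made after seeing the data, turned the direction of the sum. Without it the sum was 351, 306 and 273 CPM in DHT and 628, 339 and 310 CPM in placebo.

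Of 13 retinoid genes tested, Lrat among them, 1 was called higher and 0 lower, with a median of −0.33. Cyp26b1, which breaks down retinoic acid, rose by 3.20 ± 0.57 on the log2 scale (adjusted p = 0.038), with 10.4, 5.03 and 8.35 CPM in DHT and 0.565, 0.327 and 1.38 CPM in placebo. The call was lost with the stricter filter of 1 CPM in 3 libraries (adjusted p = 0.0517) and in each fit without 1 library except that without placebo library 3 (up to 0.178, without placebo 1). Without placebo library 3 the log2 fold change of Cyp26b1 was 3.97. Cyp26a1, its relative in hepatocytes, went the other way at −2.60 ± 0.67 (adjusted p = 0.117), and fell with the replicate block (adjusted p = 0.000145). Without placebo library 3 Cyp26a1 was at −1.65. With the block 2 of the list rose and 2 fell.

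Among genes of stellate cell activation, of 20 tested, 0 were called higher and 1 lower, 16 had a log2 fold change below 0 and the median was −0.59. Mgp, which encodes matrix Gla protein, an inhibitor of calcification, fell by 2.29 ± 0.41 (adjusted p = 0.0379). It had 0.827, 0.928 and 0.895 CPM in DHT and 4.58, 1.94 and 4.90 CPM in placebo. The call was lost without any single DHT library, without placebo library 1 and without both libraries numbered 3 (up to 0.165). Sparc, a matrix protein gene, was at −1.05 ± 0.35 (adjusted p = 0.209) and fell with the block (adjusted p = 0.0169). Tagln, an actin-binding protein gene, was at −0.97 ± 0.36 (adjusted p = 0.249), and its exons overlap other counted genes over 67.9% of their length. With the block 0 rose and 4 fell.

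Among small leucine-rich proteoglycans, Omd had the opposite sign to Dcn and Lum. Of 10 tested, Dcn and Lum among them, Omd alone was called higher and 0 lower, with 9 below 0 and a median of −0.86. Omd, which encodes osteomodulin, had 5.40, 5.32 and 5.83 CPM in DHT and 0.382, 0.164 and 0.322 CPM in placebo (log2 fold change 4.06 ± 0.38, adjusted p = 0.00267). It was called in all 17 alternatives. Ogn, which encodes osteoglycin, was at −1.07 ± 0.32 (adjusted p = 0.158).

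The genes around the receptors and matrix factors were called in 0 cases. Of 7 PDGF ligand and receptor genes, Pdgfrb among them, 5 were below 0 and the median was −0.34, with Pdgfd at −1.08 ± 0.36 (adjusted p = 0.202), Pdgfc at 0.68 ± 0.29 (0.311) and Pdgfrl at −0.59 ± 0.40 (0.507). Of 19 TGF-beta pathway genes, Ecm1 among them, 14 were below 0 and the median was −0.55. Tgfbr3, the accessory receptor, was at −1.18 ± 0.33 (adjusted p = 0.145) and fell with the block (adjusted p = 0.00543), one of 3 that did, Ecm1 included. Ltbp1, which stores latent TGF-beta in matrix, was at −0.61 ± 0.30 (adjusted p = 0.351).

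Of 16 CCN and YAP pathway genes tested, Ctgf among them, 0 were called, 8 were below 0 and the median was −0.04, and with the block Ctgf alone fell. Cyr61, the closest CCN relative of Ctgf in its regulation, had 13.9, 12.0 and 8.999 CPM in DHT and 6.23, 6.58 and 5.68 CPM in placebo (log2 fold change 0.73 ± 0.26, adjusted p = 0.237). Yap1 was at 0.63 ± 0.27 (adjusted p = 0.303). The difference between Ctgf and these genes was not tested.

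Of 7 RGS genes tested, Rgs5 among them, 0 were called and 5 were below 0. Rgs3 was at −0.92 ± 0.34 (adjusted p = 0.249) and fell with the block (adjusted p = 0.0223), Rgs18 was at −1.19 ± 0.53 and Rgs4 at −1.17 ± 0.59. Without placebo library 1 Rgs4 was at −0.34. In the reelin pathway 0 of 3 tested genes, Reln among them, were called. Dab1, the adaptor, was at −0.54 ± 0.65 and Vldlr, a receptor, at −0.26 ± 0.43. Of 13 transcription factor genes that included Hand2, 0 were called and 11 were below 0, with Meis1 at −0.73 ± 0.34 and Mef2c at −0.98 ± 0.47 (−0.39 without placebo library 1). Of 6 intermediate filament genes that included Des, 0 were called and 4 were below 0, with Gfap at −0.98 ± 0.48 and Vim at −0.81 ± 0.40. Adjusted p-values of these unblocked values ran from 0.249 to 0.797.

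Markers of other cell types were set beside the stellate genes. The summed level of the 10 stellate markers was 446, 379 and 350 CPM in DHT and 852, 419 and 523 CPM in placebo. Dcn and Ecm1 made up most of that sum. Without them, a split made after seeing the data, it was 151, 116 and 117 CPM in DHT and 199, 96.0 and 138 CPM in placebo. The DHT libraries then lay inside the placebo range. Endothelial markers summed to 250, 188 and 201 CPM in DHT and 392, 246 and 169 CPM in placebo. For smooth muscle and pericyte genes the sums were 47.4, 39.5 and 29.9 CPM in DHT and 98.9, 41.6 and 30.03 CPM in placebo. Placebo 1 was therefore highest for these cell types as well, and for hepatocyte markers (133191 CPM). Their part in the stellate marker levels was not tested.

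Kupffer cell markers summed to 312 to 457 CPM in DHT and 262 to 436 CPM in placebo. For mesothelial markers the sums were 113 to 249 CPM in DHT and 117 to 248 CPM in placebo. Nearly all of the mesothelial sum was Krt18, at 111 to 248 CPM in DHT and 115 to 247 CPM in placebo. Bile duct markers were at 54.4 to 110 CPM in DHT and 75.8 to 83.3 CPM in placebo. Spp1 was the most counted of them in every library (1937 to 4919 counts in DHT and 3518 to 4008 in placebo). Portal fibroblast genes were at 40.1 to 50.9 CPM in DHT and 41.5 to 56.9 CPM in placebo. Gas1 was the most counted of these in every library (740 to 1531 counts in DHT and 778 to 1314 in placebo). Lymphocyte markers were at 3.75 to 5.47 CPM in DHT and 3.02 to 7.62 CPM in placebo. Skeletal muscle markers were at 0.619 to 0.911 CPM in DHT and 0.763 to 1.86 CPM in placebo, and Ckm, Myh1 and Myh2 had 0 counts. Most of that sum was Mylpf, at 0.522 to 0.871 CPM in DHT and 0.727 to 1.84 CPM in placebo. Muscle as a source of desmin RNA was not tested.

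In these other cell type lists only Cfd was called. Cfd, an adipocyte gene that encodes complement factor D, rose by 8.07 ± 1.11 (adjusted p = 0.0134), a call lost by limma (adjusted p = 0.206) and without any single placebo library (up to 0.109). Without DHT library 3, its highest library, the log2 fold change was 6.67 (adjusted p = 0.00527). Cfd had 4.56, 15.5 and 59.9 CPM in DHT and 0.0498, 0.0727 and 0.133 CPM in placebo. Car3, which hepatocytes express strongly as well, was at 1.35 ± 0.32 (adjusted p = 0.0967) and rose with the block (adjusted p = 0.00574). Adipoq, Plin1, Lep and Retn were too low to be tested, with Lep at 0 counts.

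By the smallest p, the portal fibroblast genes were led by Cd34 (−1.84 ± 0.49), Sfrp1 (−1.97 ± 0.54) and Thy1 (−1.05 ± 0.38), and the smooth muscle genes by Myl9 (−1.24 ± 0.34), Synpo2 (1.31 ± 0.44) and Kcnj8 (−0.89 ± 0.43). Endothelial genes were led by Kdr (−0.79 ± 0.36), Oit3 (−0.69 ± 0.33) and Lyve1 (−1.46 ± 0.73, but −0.22 without placebo library 1), and Kupffer genes by C1qa (−0.39 ± 0.30), C1qc (−0.30 ± 0.35) and Marco (0.70 ± 0.88). Bile duct genes were led by Krt19 (−1.49 ± 0.35), Epcam (−0.89 ± 0.29) and Krt7 (−1.17 ± 0.41). None of these 15 genes passed the test, and with the replicate block Cd34, Sfrp1, Myl9 and Krt19 fell (adjusted p 0.00155 to 0.00986).

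Against the median of −0.85 for the stellate markers, the median log2 fold change was −0.89 for bile duct, −0.76 for portal fibroblast, −0.64 for smooth muscle and −0.47 for endothelial genes. It was −0.51 for lymphocyte, −0.36 for hepatocyte, −0.25 for mesothelial and 0.03 for Kupffer cell genes. Hepatocyte genes were led by Cps1, the urea cycle enzyme (−1.41 ± 0.39), which fell with the block (adjusted p = 0.00834), Apoa1 (−0.71 ± 0.34) and Trf (−0.57 ± 0.29). Lymphocyte genes were led by Nkg7 (−1.46 ± 0.44), Cd3d (−1.86 ± 0.70) and Cd3e (−0.61 ± 0.49). Cd3d fell with the block (adjusted p = 0.0178), and without placebo library 3 it was at −1.06. Mesothelial genes were led by Lrrn4 (−1.52 ± 0.63), Upk3b (−0.86 ± 0.38) and Krt18 (−0.25 ± 0.38). Mylpf, the one muscle gene tested, was at −0.97 ± 0.45. These 10 genes had adjusted p-values of 0.139 to 0.782 without the block.

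**Figure D4:**
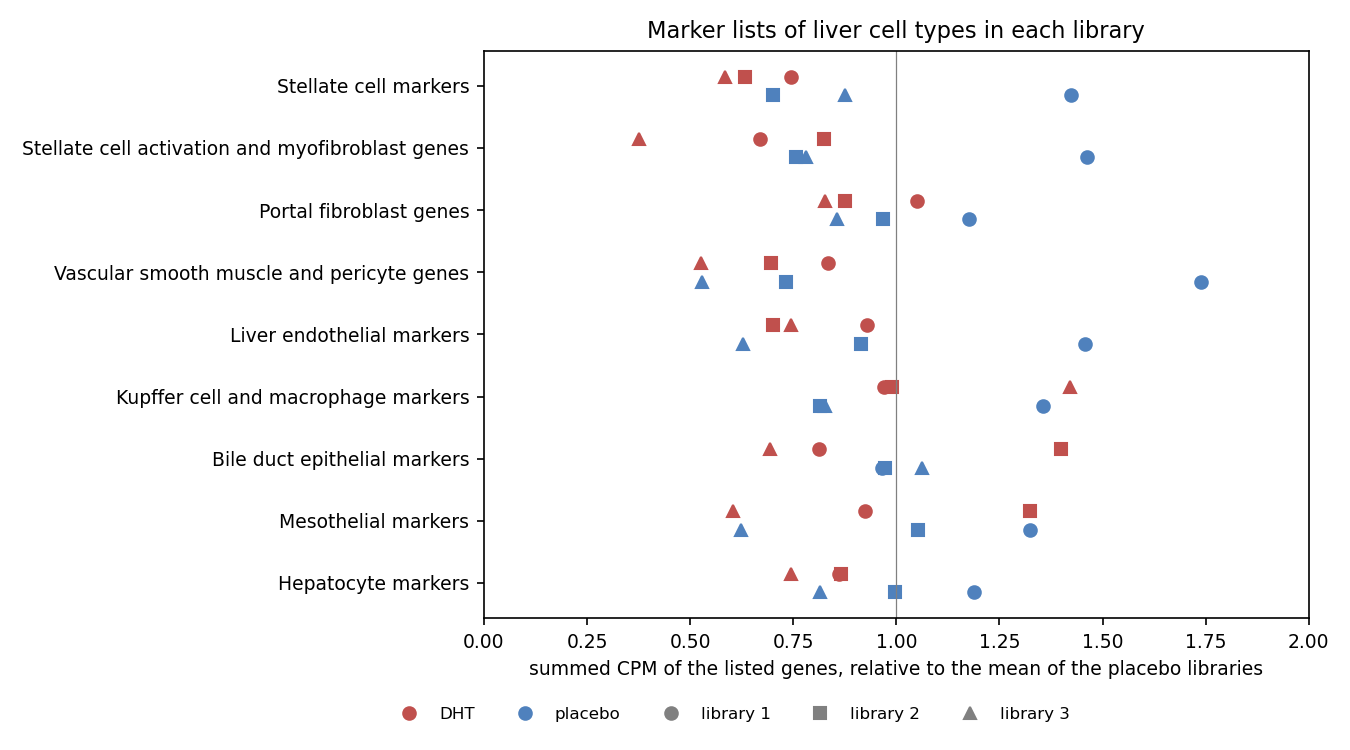
Summed CPM of the marker genes of 9 liver cell types or states in each library, divided by the mean of the 3 placebo libraries (vertical line at 1), with DHT above placebo in each row. Placebo 1 (blue circle) is at 1.42 for the stellate markers, 1.74 for smooth muscle, 1.46 for endothelium and 1.19 for hepatocytes. Krt18 makes up most of the mesothelial sum, and Spp1 and Gas1 are the most counted bile duct and portal fibroblast genes.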

How the data were processed

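Liver RNA of 3 DHT and 3 placebo libraries was sequenced from both ends on a HiSeq after preparation with an NEB kit, per the labels' protocols. Per the submitters' processing notes, which give no order, the tools include featureCounts, Subread 1.5.2, STAR 2.5.2b and Trimmomatic 0.36, with GRCm38 as the mouse build. The deposited values are whole-number counts per gene, 1 table per library, with exon coordinates and length, per the file headers. No source used here gives the strand setting or how multiply mapped reads were treated. Coordinates are those of the tables.

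CPM are counts over all gene counts of a library. The test was edgeR 4.0.16 in R 4.3.3 (filterByExpr by group, TMM, robust glmQLFit, glmQLFTest) over 15126 genes, DHT minus placebo, with Benjamini-Hochberg adjustment over all of them. The SE is the log2 fold change over the square root of F. All 10 stellate genes passed the filter. Of these libraries, the closest pair (DHT 1 and 2) still differed by a chi-square per degree of freedom of 104.7. The procedure was also run on simulated counts with the same spread in both groups. That run did not cover the uneven placebo libraries of these data.

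Same-numbered DHT and placebo libraries deviated together from their group means (correlations 0.2455, 0.1451 and 0.6019 for numbers 1, 2 and 3), so the replicate number was used as a block in an alternative fit. The titles give the numbers and say nothing of a shared day or litter. DHT 1 correlated more with placebo 2 (0.4448), and DHT 2 more with placebo 1 (0.2868). Only number 3 was closest to its own number. The block was chosen from these same data, so calls made with it are no separate support. Alternatives used limma 3.58.1 (voom with quality weights), DESeq2 1.42.0, other scalings and filters, and fewer libraries. The stellate genes and the lists were chosen with earlier results of these data known. Named are the 10 genes, the 3 genes of each list with the smallest p, and any called list gene; 1 gene that this rule names is not reported here. The table of all genes called 144 higher and 106 lower, and with library size alone 207 higher and 89 lower.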

Additional observations from a re-analysis of the deposited data

How the results depend on the processing

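The count of all genes called was 250 of 15126 (1.65%). With no low-count filter it was 521 of 26493 (1.97%). It was 1621 with the replicate block (10.7%), 744 with limma (4.92%) and 1062 with DESeq2 (7.02%). Without both libraries numbered 3 it was 448 (2.95%). In the 6 fits without 1 library it was 84 to 862, lowest without DHT 2 (0.539%) and highest without placebo 3 (5.54%). The count of stellate genes called was 0, and it was 1 with no low-count filter, 3 with the replicate block, 1 with limma, 2 with DESeq2, and 0 to 2 in the fits without 1 library (2 without placebo 3). The 3 genes called with the replicate block were Ecm1, Lum and Ctgf, and DESeq2 called Ctgf and Lum without a block. Why more genes passed with the block was not tested.

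Over 17 alternatives and the 10 genes, 155 of 170 values kept their direction and their side of the threshold, 9 kept the direction and passed, and 6 turned sign. In the fits without 1 library the range was −0.69 to 0.060 for Lrat (highest without placebo 3), −0.68 to 0.16 for Pdgfrb (above 0 without DHT 3 and without placebo 1) and −0.18 to 0.72 for Rgs5 (below 0 without DHT 1 and without placebo 2). Lrat was also above 0 without both libraries numbered 3 (0.040). Among list genes the range in these fits was −0.48 to 0.25 for Vldlr, −0.54 to 0.14 for C1qc, −0.55 to 0.0041 for Krt18 and −1.10 to 1.41 for Marco. Marco was also below 0 with the replicate block (−0.051), with limma (−0.83) and without both libraries numbered 3 (−1.41). The cause was not tested. TMM scaling moved the level of Lum per length in DHT to 2.96 from 3.16 CPM per kilobase, and other levels per length moved by less than their SD. The limits are the 3 libraries per group, the uneven placebo libraries and the sex chromosome signal that follows the groups. The 10 genes had at least 63 counts in each library, and the effect of depth on their tests was not tested.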
